A study of Mus musculus with 8 samples.

Results

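Disease-associated microglia are a state that microglia, the resident macrophages of the brain, take up around amyloid plaques, dying neurons and damaged myelin. The state was described as a shared programme in which genes for lipid uptake, phagocytosis, lysosomal function and secreted growth factors are turned on, with full induction depending on the lipid-sensing receptor Trem2. The genes examined here are a list of 10 from that programme, chosen by name with Apoe, the tetraspanins, the cathepsins and the galectins left aside. By role they are the receptors and surface proteins Axl, Itgax, Clec7a and Gpnmb, the lipid, protease-inhibitor and transport genes Lpl, Cst7 and Ank, and the secreted factors Spp1, Igf1 and Csf1. Of the 10, 9 were matched by symbol in a count table of 35583 genes, and Clec7a was not analysed here. Gpnmb had no counts, so 8 genes were tested.

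Each library came from microglia that were sorted out of hypothalamic tissue. The mice were young and wild-type, and plasma protein coupled to a dye had been injected 20 hours earlier. Plasma-positive microglia carried the label and plasma-negative microglia did not, and there were 4 libraries of each. Both groups come from injected mice, and no uninjected group is among the samples. The labels give neither sex nor strain, nor whether animals were pooled or whether libraries with the same replicate number came from the same animal, so p-values measure the spread between libraries, which may be technical.

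Library totals ranged from 2963094 counts in plasma-negative replicate 4 to 21422738 in plasma-negative replicate 1. All 11 homeostatic microglial markers used (P2ry12, Tmem119, Cx3cr1, Sall1 and others) were tested, and their summed level was 49897 to 56513 CPM (counts relative to TMM-adjusted library size) in plasma-negative and 51958 to 56600 CPM in plasma-positive libraries. Of the 11, 1 was called higher, Olfml3, with a log2 fold change of 0.37 (edgeR, adjusted p = 0.00647), where 0.844% of all tested genes were called higher. The CD3 chains of the T cell receptor complex (Cd3d, Cd3e and Cd3g) had 0 counts in all 8 libraries. So did the border macrophage genes Cd163, Lyve1 and F13a1 and the neutrophil genes Ly6g and Mpo. Another border macrophage gene, Mrc1, was at 1.06 ± 1.24 CPM in plasma-negative and 7.66 ± 7.13 CPM in plasma-positive libraries (SD, n = 4). Its log2 fold change of 2.93 (SE 1.51) did not pass (edgeR, adjusted p = 0.429), and it was named after its values were seen. Homeostatic microglial markers were thus present at high levels in every library. Plasma-positive replicate 3 stood apart in the monocyte and neutrophil list, with S100a8 at 299.9 CPM and S100a9 at 171 CPM, where each of the other 7 libraries had less than 1 CPM of either gene. Plasma-positive replicate 2 had the most neuron and astrocyte marker RNA. In bulk RNA, fewer cells expressing a gene and less RNA per cell cannot be told apart.

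Of the 8 tested genes, 0 passed an adjusted p of 0.05 in edgeR's quasi-likelihood test over 13277 genes, in which 0.844% of genes were called higher in plasma-positive microglia and 1.41% in either direction. All 8 had a positive log2 fold change, as did 50.4% of tested genes. Their median was 1.06, against 0.0058 over all tested genes, and the range was 0.54 for Ank to 2.56 for Axl. At an unadjusted p under 0.05 there were 2 of 8, Axl and Lpl, where 7.13% of tested genes were higher at that level. At an adjusted p under 0.1 there was 1 of 8, Axl, where 1.66% of tested genes were higher. DESeq2, which called 3.24% of genes higher, called 1 of the 7 to which it gave an adjusted p, namely Axl. In 3 of 8 (Axl, Itgax and Lpl) every plasma-positive library lay above every plasma-negative one, a pattern found in 5.68% of tested genes. The median describes only genes that passed the filter on low counts, and Spp1 had 0 counts in 3 of the 4 plasma-negative libraries.

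**Figure D1:**
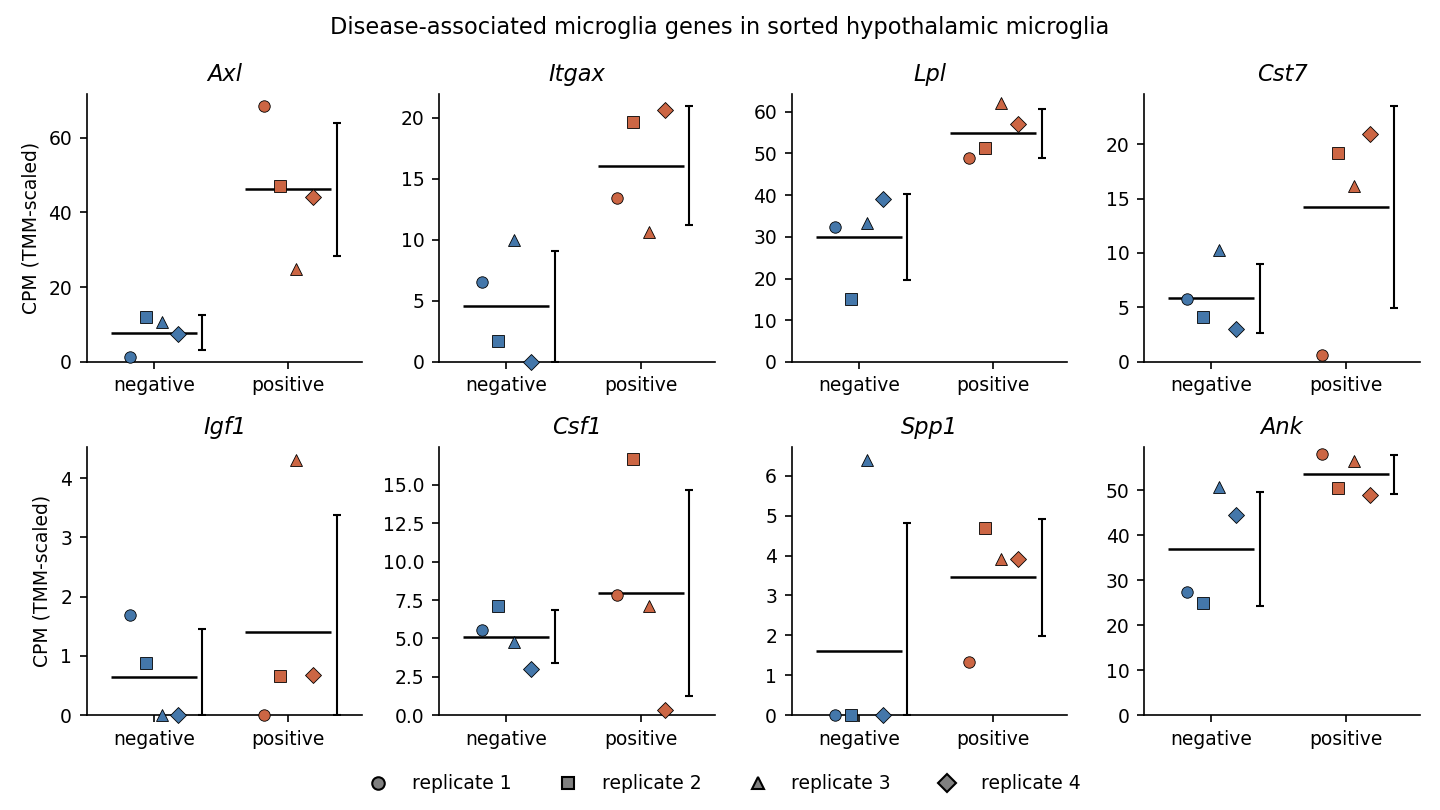
Expression of the 8 tested genes in each library, as TMM-scaled CPM on linear axes that start at 0 and differ between panels. Points are libraries, shapes are replicate numbers, horizontal lines are means and vertical bars are SD (n = 4), drawn down to 0 where the SD exceeds the mean. Axl, Itgax and Lpl show no overlap between the groups, Ank overlaps by 1 plasma-negative library, and Cst7 and Csf1 each have 1 plasma-positive library below all plasma-negative ones.

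Axl encodes a receptor tyrosine kinase of the TAM family, which binds Gas6 bridged to phosphatidylserine on dying cells and membranes. It had the largest fold change of the 8 genes. In plasma-negative replicates 1 to 4 it was at 1.28, 11.96, 10.6 and 7.40 CPM, and in plasma-positive replicates 1 to 4 at 68.4, 46.9, 24.97 and 44.1 CPM. The lowest plasma-positive library exceeded the highest plasma-negative one by 13.01 CPM. Means were 7.81 ± 4.75 and 46.1 ± 17.8 CPM (SD, n = 4), a ratio of 5.90, and the fitted log2 fold change was 2.56 (SE 0.58) (edgeR, unadjusted p = 0.000843, adjusted p = 0.0532). This was short of the threshold. Axl passed in DESeq2 (adjusted p = 0.000601), in limma-voom with quality weights (adjusted p = 0.0452) and in edgeR without plasma-negative replicate 1, its lowest library (adjusted p = 0.0429). In edgeR fits without each of the other 7 libraries, it did not.

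The gene lies on the minus strand of chromosome 7, at 25757273 to 25788705 in build mm10, with 5033 bases of exon and none shared with another gene. Itgax is on the plus strand of the same chromosome, at 128129547 to 128150657, with 4803 bases of exon. Itgax encodes CD11c, the integrin alpha chain that pairs with Itgb2 to form complement receptor 4 and marks dendritic cells and reactive microglia. The start-site windows of these genes, whose groups did not overlap, are shown with that of Gpnmb, which had no reads (RefSeq, GRCm38.p6, 250 bases before to 50 bases after the start, 5′ to 3′ along the gene). Capitals mark matches to the letters GAGGAA, a core of sites for the myeloid factor PU.1, or TGANTCA, the AP-1 site, on either strand.
Axl: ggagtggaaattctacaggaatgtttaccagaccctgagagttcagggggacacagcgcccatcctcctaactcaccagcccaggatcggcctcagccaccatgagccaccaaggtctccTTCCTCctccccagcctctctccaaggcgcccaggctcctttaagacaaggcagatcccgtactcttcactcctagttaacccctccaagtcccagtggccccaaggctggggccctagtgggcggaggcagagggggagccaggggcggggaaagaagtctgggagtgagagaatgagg
Itgax: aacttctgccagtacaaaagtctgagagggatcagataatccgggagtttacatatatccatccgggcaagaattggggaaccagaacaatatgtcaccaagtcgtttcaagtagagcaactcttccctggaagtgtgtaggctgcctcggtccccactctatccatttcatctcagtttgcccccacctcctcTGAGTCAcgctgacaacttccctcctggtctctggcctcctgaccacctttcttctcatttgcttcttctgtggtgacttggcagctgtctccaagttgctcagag
Gpnmb: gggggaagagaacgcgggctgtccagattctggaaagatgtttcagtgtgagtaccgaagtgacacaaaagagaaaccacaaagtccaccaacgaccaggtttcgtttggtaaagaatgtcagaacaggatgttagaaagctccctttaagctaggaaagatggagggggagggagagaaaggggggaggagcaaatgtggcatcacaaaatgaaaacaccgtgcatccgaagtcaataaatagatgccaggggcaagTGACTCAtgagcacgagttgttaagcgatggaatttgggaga
The windows are chr7:25788684-25788983 on the minus strand, chr7:128129300-128129599 on the plus strand and chr6:49036268-49036567 on the plus strand. Beside these, the E-box with the letters CACGTG, the M-box with the letters CATGTG and the TATA box with the letters TATAAA were searched. Both strands were covered, and no matches overlapped in the 9 windows of the 8 listed genes that had one. These 8 include Gpnmb, and no window of Lpl or Clec7a was searched. Axl held 1 match to GAGGAA, on the opposite strand and beginning 130 bases before the start. Itgax held 1 match to TGANTCA, 56 bases before the start, and Gpnmb held 1 that begins at base 9 of the transcript. Among the 8 genes, GAGGAA was found in 4 (Ank, Axl, Igf1 and Spp1) and TGANTCA in 4 (Cst7, Gpnmb, Igf1 and Itgax), against 28.3% and 7.81% of 32851 windows of the same length. The TATA box letters were found in Spp1 alone among these genes, against 13.6% of windows, and those of the E-box and M-box in 0 genes, against 7.15% and 14.2%. The TGANTCA motif was thus present both in a gene whose groups separated and in one without reads. A match is a run of letters and not a shown site.

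Itgax was at 6.55, 1.70, 9.96 and 0 CPM in plasma-negative replicates 1 to 4, the last being 0 counts in the smallest library, where 3 counts would be 1.01 CPM. In plasma-positive replicates 1 to 4 it was at 13.4, 19.6, 10.6 and 20.7 CPM. The groups were separated by 0.652 CPM, between plasma-negative replicate 3 and plasma-positive replicate 3. Means were 4.55 ± 4.55 and 16.1 ± 4.85 CPM (SD, n = 4), a ratio of 3.53. The log2 fold change was 1.77 (SE 0.84), and the difference did not pass (edgeR, adjusted p = 0.384), with a range of 0.0779 to 0.564 over all alternatives. Over the same alternatives the log2 fold change ran from 1.19 to 2.87, and without plasma-negative replicate 3 it was 2.45. The groups overlapped in the 8 dendritic cell markers, which summed to 11.1 to 23.2 CPM in plasma-negative and 4.12 to 23.8 CPM in plasma-positive libraries, and Cd209a and Clec10a had 0 counts throughout. Itgb2, the beta chain partner of Itgax, was at 685 ± 122 and 858 ± 70.0 CPM (SD, n = 4), a log2 fold change of 0.33 that did not pass (edgeR, adjusted p = 0.233). It was named after its values were seen.

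Gpnmb, a transmembrane glycoprotein of lysosome-rich and foamy macrophages, had 0 counts in all 8 libraries (chromosome 6, 49036546 to 49070929, 6514 bases of exon). A count of 0 allows up to 3 counts, which is 0.133 CPM in the deepest library and 1.01 CPM in the shallowest, for counting error only. All 13 mitochondrial genes in the table were also at 0 counts in every library, although cells express them, so a 0 in this table need not bound a level. No fold change was computed for Gpnmb.

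Lpl encodes lipoprotein lipase, which releases fatty acids from triglyceride-rich lipoproteins (chromosome 8, 68880491 to 68907448). In plasma-negative replicates 1 to 4 it was at 32.3, 15.1, 33.4 and 39.0 CPM, and in plasma-positive replicates 1 to 4 at 49.0, 51.3, 62.0 and 57.0 CPM. All plasma-positive libraries were above all plasma-negative ones, with 9.92 CPM between the nearest. Means were 29.9 ± 10.3 and 54.8 ± 5.87 CPM (SD, n = 4), a ratio of 1.83. The log2 fold change was 0.88 (SE 0.29) (edgeR, unadjusted p = 0.0097, adjusted p = 0.175), which did not pass. Lpl has the longest exons of the listed genes, at 10478 bases, and a correction for exon length and GC content gave 1.16 (edgeR, adjusted p = 0.116). Over all alternatives its adjusted p ranged from 0.0593 to 0.331.

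Cst7 encodes cystatin F, an inhibitor of cathepsins in the endolysosomal compartment (chromosome 2, 150570415 to 150578944). Its 986 bases of exon are the fewest of the list. In plasma-negative replicates it was at 5.80, 4.15, 10.3 and 3.03 CPM. Plasma-positive replicates 2 to 4 were all higher, at 19.2, 16.2 and 20.9 CPM, but plasma-positive replicate 1 was at 0.66 CPM, from 6 counts, and was the lowest of all 8 libraries. That same library was the highest for Axl. Means were 5.82 ± 3.20 and 14.2 ± 9.26 CPM (SD, n = 4), and the log2 fold change of 1.27 (SE 0.80) did not pass (edgeR, adjusted p = 0.534). Without plasma-positive replicate 1 it was 1.67, which did not pass either (edgeR, adjusted p = 0.22). Over all alternatives the log2 fold change of Cst7 ran from 0.57, in limma-voom with quality weights, to 1.70.

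Ank encodes a membrane protein that raises pyrophosphate outside the cell (chromosome 15, 27466677 to 27594909). In plasma-negative replicates 1 to 4 it was at 27.5, 24.9, 50.8 and 44.4 CPM, and in plasma-positive replicates 1 to 4 at 58.0, 50.4, 56.6 and 49.0 CPM. The plasma-positive libraries were close together, while plasma-negative replicate 3 lay above plasma-positive replicates 2 and 4. Means were 36.9 ± 12.7 and 53.5 ± 4.43 CPM (SD, n = 4), and the log2 fold change of 0.54 (SE 0.26) did not pass (edgeR, adjusted p = 0.392).

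The secreted factors were low and uneven. Spp1 encodes osteopontin, a phosphoprotein that binds integrins and Cd44 (chromosome 5, 104435118 to 104441050), and 18.8% of its exon length overlaps Gm42793, so its counts are uncertain. It had 0, 0, 110 and 0 counts in plasma-negative replicates 1 to 4, or 6.40 CPM in replicate 3, the highest of all 8 libraries. In plasma-positive replicates 1 to 4 it was at 1.32, 4.68, 3.91 and 3.91 CPM. Reads were found in 4 of 4 plasma-positive and 1 of 4 plasma-negative libraries. The log2 fold change was 1.07 (SE 1.62) (edgeR, adjusted p = 0.848). Over the alternatives that gave it a value it ran from 0.65 to 8.62. It was 5.38 with the replicate number as a block and 4.24 in limma-voom with quality weights, and passed in neither. Without plasma-negative replicate 3, all remaining plasma-negative libraries were at 0 counts and the adjusted p was 0.093 in edgeR, still short of the threshold.

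Igf1 encodes insulin-like growth factor 1, a trophic factor for neurons and myelinating cells (chromosome 10, 87858265 to 87937042, 9904 bases of exon). It was at 1.68, 0.88, 0 and 0 CPM in plasma-negative replicates and at 0, 0.66, 4.31 and 0.67 CPM in plasma-positive ones. Both groups held libraries at 0, and the difference did not pass (log2 fold change 1.06, SE 1.56, edgeR adjusted p = 0.844). The higher plasma-positive mean rested on replicate 3, without which it was 0.444 CPM, below the plasma-negative mean of 0.641 CPM. Igf1 did not pass the filter on low counts in that fit, and on log2(RPKM + 1) its log2 fold change was 0.08.

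Csf1 encodes the macrophage colony-stimulating factor, a ligand of the receptor Csf1r on which microglia depend (chromosome 3, 107741048 to 107760469, minus strand). In plasma-negative replicates 1 to 4 it was at 5.58, 7.11, 4.77 and 3.03 CPM. In plasma-positive replicates 1 to 4 it was at 7.81, 16.7, 7.11 and 0.335 CPM, so this group held both the highest and the lowest library. The log2 fold change was 0.63 (SE 0.85) (edgeR, adjusted p = 0.82). Its direction rested on plasma-positive replicate 2, without which it was -0.016 (edgeR, adjusted p = 0.997), and without plasma-positive replicate 4 it was 1.03 (edgeR, adjusted p = 0.57).

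**Figure D2:**
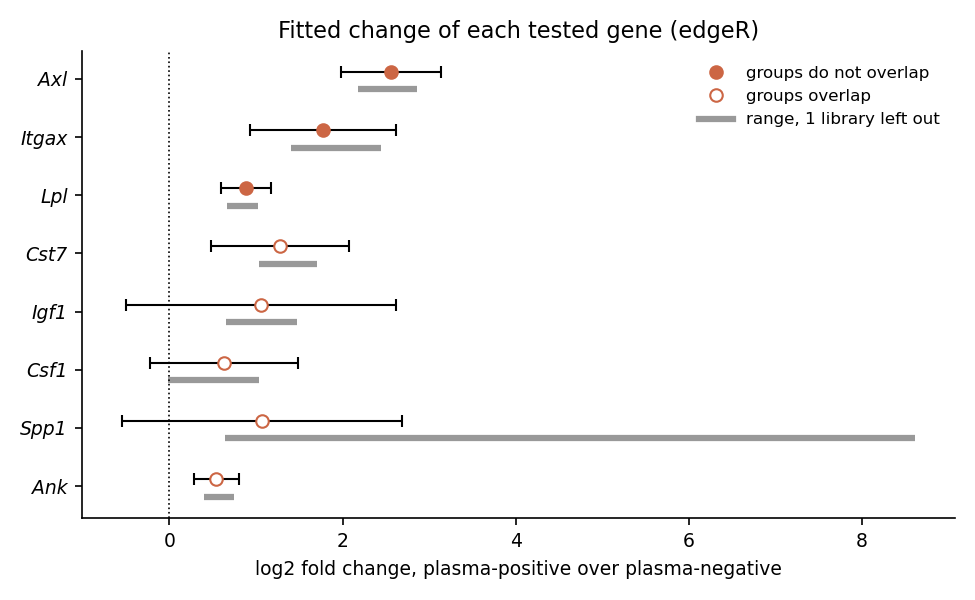
Fitted log2 fold change (plasma-positive over plasma-negative, edgeR) of the 8 tested genes. Points are the estimate with bars of 1 SE, filled where the groups do not overlap, and grey bars are the range over the 8 fits that leave out 1 library (6 for Igf1, which did not pass the filter in the others). Axl lies at 2.56, Itgax at 1.77 and Lpl at 0.88, and the grey bar of Spp1 reaches 8.62 because 1 of those fits leaves its plasma-negative group at 0 counts.

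The plasma-positive libraries did not share an order across the list. Replicate 1 was highest of the 4 for Axl and Ank and lowest for Cst7, Spp1, Lpl and Igf1. Replicate 2 was highest for Csf1 and Spp1, replicate 3 for Lpl and Igf1, and replicate 4 for Cst7 and Itgax. Despite this, the summed level of the 9 genes was close among plasma-positive libraries, at 199, 209, 186 and 197 CPM in replicates 1 to 4. In plasma-negative replicates 1 to 4 it was 80.6, 65.8, 126 and 96.9 CPM, and the groups did not overlap. Lpl and Ank made up most of the sum in every library other than plasma-positive replicate 2. Without them the sums were 13.5 to 42.0 CPM in plasma-negative and 67.1 to 107.8 CPM in plasma-positive libraries, and Axl was the largest part in each plasma-positive library.

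Per length, on the deposited RPKM scale, which divides reads by exon length and library size, the listed genes ranged from low abundance to above the middle of all tested genes. In plasma-negative libraries the order of mean levels was Ank at 7.48 ± 2.60, Cst7 at 4.30 ± 2.33, Lpl at 2.10 ± 0.75 and Axl at 1.13 ± 0.68 RPKM (SD, n = 4), and the SD ranges of neighbours in this order overlapped. Csf1, Spp1 and Itgax followed at 0.707, 0.704 and 0.688 RPKM, within their spread of one another, and Igf1 was last at 0.0471 RPKM. In plasma-positive libraries Ank at 11.8 ± 1.09 and Cst7 at 11.5 ± 7.44 RPKM were within their spread. The SD range of Axl, at 7.31 ± 2.84 RPKM, overlapped those of Cst7 and of Lpl, the latter at 4.17 ± 0.43 RPKM. In plasma-positive replicate 3 Axl was below Lpl, at 3.99 against 4.76 RPKM. Itgax followed at 2.67 ± 0.79 RPKM, and its highest plasma-positive library, at 3.33, was below the lowest of Lpl, at 3.74 RPKM. Over all 8 libraries the median tested gene was at 3.84 RPKM. Ank stood above 74.1% of tested genes, Cst7 above 69.6%, Axl above 52.8% and Igf1 above 0.166%.

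The wider programme was described by 26 other genes of disease-associated microglia. Of the 23 tested, 9 were called higher in plasma-positive microglia and 0 lower (edgeR, adjusted p under 0.05). Over all tested genes 0.844% were called higher. These shares are not at like precision, since the 23 had a median level of 884 CPM and a median SE of 0.11. All tested genes had medians of 21.2 CPM and 0.40. The median log2 fold change of the 23 was 0.48, against 0.0058 over all tested genes. Apoe, the main lipid carrier of the brain, was at 58.8 ± 30.7 CPM in plasma-negative and 503 ± 111 CPM in plasma-positive libraries (SD, n = 4; edgeR, adjusted p = 0.00265). In the same order, Fth1, the ferritin heavy chain, was at 1703 ± 143 and 2554 ± 163 CPM. The protease Ctsb was at 3023 ± 101 and 4088 ± 282 CPM and the lysosomal protease Ctsd at 12528 ± 347 and 14912 ± 508 CPM. For Fth1, Ctsb and Ctsd (SD, n = 4) the adjusted p in edgeR was 0.00427, 0.00489 and 0.00571. After correction for exon length and GC content, 5 of these 9 genes passed, and 7 genes of the list in all. Without plasma-positive replicate 4, 5 of the 9 passed, and 5 genes of the list in all. Lgals3, Ch25h and Mamdc2 did not pass the filter on low counts.

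In the median, the 8 listed genes were expressed at lower levels than the other genes of the programme and had larger errors. Their median level was 10.2 CPM and their median SE 0.82 on the log2 scale, whereas the 23 others had a median level of 884 CPM and a median SE of 0.11. Trem2, on which full induction depends, was at 1623 ± 92.9 and 1666 ± 110 CPM (SD, n = 4), a log2 fold change of 0.04 (SE 0.07) (edgeR, adjusted p = 0.874). Trem2 was named after its values were seen.

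**Figure D3:**
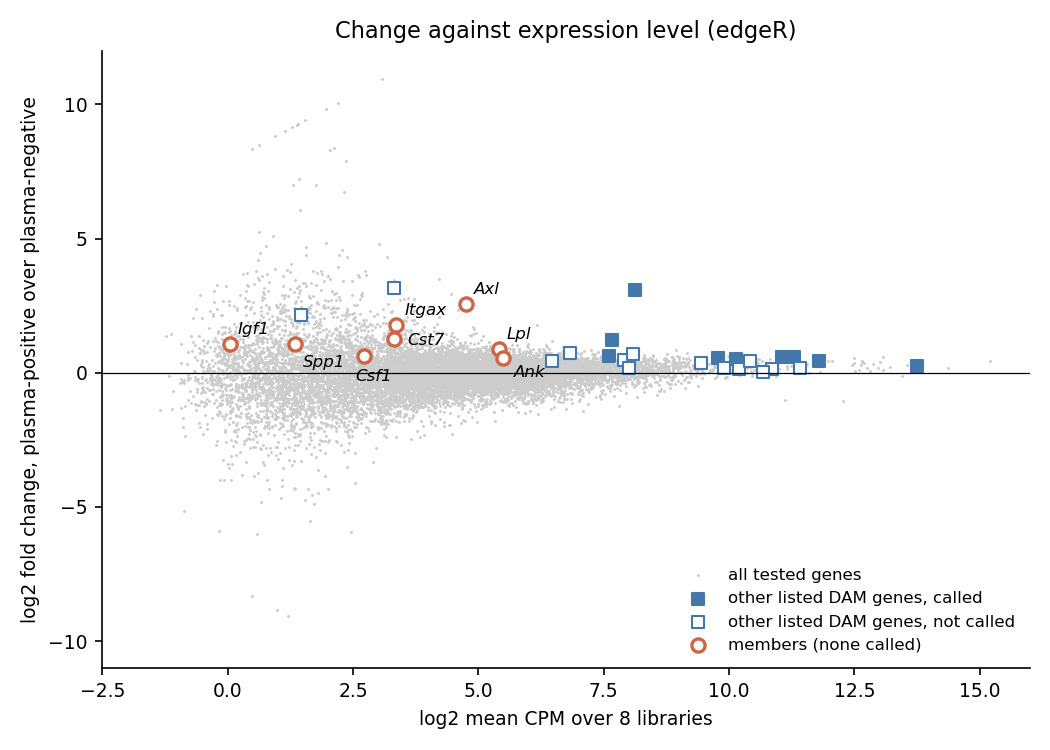
Log2 fold change (plasma-positive over plasma-negative, edgeR) against log2 mean CPM for 13277 tested genes in grey. Circles are the 8 listed genes, none called, and squares are 23 other genes of disease-associated microglia, filled where called. The circles lie at lower expression, where grey points spread widely, and the 9 called squares lie at higher expression.

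Ligands, receptors and other partners of the listed proteins formed a further list of 26, of which 19 were tested. Of these 1 was called higher and 0 lower, beside 0.844% called higher and 1.41% called in either direction over all tested genes. The median log2 fold change of the 19 was 0.09. Csf1r, the receptor of Csf1, was at 10770 ± 471 CPM in plasma-negative and 13113 ± 332 CPM in plasma-positive libraries (SD, n = 4; edgeR, adjusted p = 0.00489). Among partners above 32 CPM, the largest changes in size were those of Igfbp4, a binding protein of Igf1, at 1.02 (SE 0.36), and the insulin receptor Insr at -0.80 (SE 0.32), neither of which passed (edgeR, adjusted p = 0.221 and 0.292). Gas6, the ligand of Axl, was at 158 ± 9.50 and 221 ± 26.2 CPM, and Mertk, another TAM receptor, at 653 ± 20.0 and 563 ± 60.9 CPM (SD, n = 4). Their log2 fold changes of 0.49 and -0.21 did not pass (edgeR, adjusted p = 0.0806 and 0.317), and both were named after their values were seen. Tyro3, the remaining TAM receptor, did not pass the filter on low counts.

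Marker RNA of other brain cells was measured beside these values. The 8 astrocyte or tanycyte markers summed to 10.4 to 21.7 CPM in plasma-negative and 22.9 to 140 CPM in plasma-positive libraries, without overlap, with Rax at 0 counts throughout and 0 of 4 tested genes called. The 8 oligodendrocyte lineage markers summed to 157 to 230 and 222 to 518 CPM, and 0 of 5 tested were called. Sums of the 9 neuron markers were 2.69 to 28.2 and 10.05 to 268 CPM, and 1 of 4 tested, Pomc, was called higher, beside 0.844% of all tested genes. Pomc had 0 counts in the 4 plasma-negative libraries and was at 1.07 to 11.3 CPM in plasma-positive ones. The highest of each of these 3 lists was plasma-positive replicate 2. Without that library the log2 fold changes of Axl, Itgax and Lpl were 2.55, 1.67 and 0.91. That of Csf1 was then -0.016, against 0.63 with all libraries.

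Markers of blood, border and vessel cells were summed in the same way. Sums of the 8 border macrophage markers were 0.881 to 3.61 CPM in plasma-negative and 1.76 to 16.5 CPM in plasma-positive libraries, and those of the 10 monocyte or neutrophil markers 0.291 to 14.9 and 0 to 519 CPM. The value of 519 CPM was that of plasma-positive replicate 3, and the other plasma-positive libraries reached at most 1.93 CPM. Without that library Axl, Itgax and Lpl had log2 fold changes of 2.77, 1.93 and 0.82. Igf1 did not pass the filter on low counts in that fit. Its plasma-positive mean was then 0.444 CPM, below the plasma-negative mean of 0.641 CPM. The 9 lymphocyte markers summed to 30.1 to 85.0 and 55.2 to 94.5 CPM, nearly all of it Cd79b, and the 8 endothelial or mural markers to 18.5 to 37.0 and 24.1 to 58.7 CPM. Most of these markers did not pass the filter on low counts and were not tested. The border macrophage, lymphocyte and endothelial or mural lists had 1 tested gene each, not called, and the monocyte or neutrophil list had 0. The part of the glial and neuronal RNA in the values of the listed genes was not tested.

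**Figure D4:**
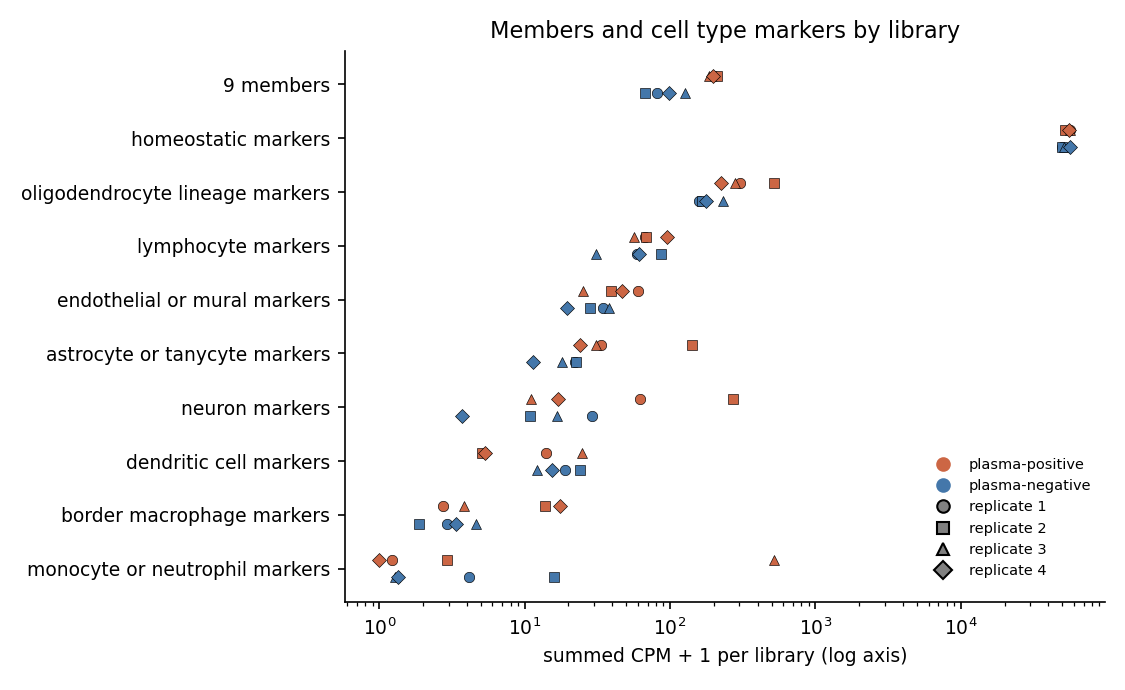
Summed CPM + 1 per library, on a log axis, of the 9 listed genes with rows and of 9 lists of cell type markers. Colours are groups and shapes are replicate numbers. The sum of the 9 genes separates the groups (65.8 to 126 against 186 to 209 CPM), and of the 9 only Axl, Itgax and Lpl do so singly. Homeostatic markers overlap, and plasma-positive replicate 3 stands alone in the monocyte or neutrophil list.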

How the data were processed

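Counts per gene were deposited by the authors as whole numbers with 1 column per library, per the file headers, and RPKM values for the same genes were deposited beside them. The submitters' processing notes name bcl2fastq, Trim Galore, STAR and HTSeq without versions and the build mm10. Libraries were made with Smart-seq2, without molecular identifiers, per the labels' protocols. How strand and multi-mapping reads were treated is not given in the sources used here. The 16 columns of standard deviations were not used.

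Counts were fitted with edgeR 4.0.16 in R 4.3.3 (TMM factors, default expression filter, quasi-likelihood F test of group, no covariate) and p-values were adjusted over all tested genes by the Benjamini-Hochberg method. The SE of a log2 fold change was taken as its size over the root of the F statistic. The code was tested on simulated counts. Exon lengths, overlaps and GC content came from GENCODE M21. Alternatives used DESeq2 1.42.0, limma 3.58.1, other scalings, filters, a loess correction for length and GC content (span 0.3), the replicate block and leaving out each library.

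The 10 genes and all gene lists were chosen with earlier results of these data known. The 10 were named whatever their values; from other lists, up to 4 called genes in each direction by p, or the 2 largest changes above 32 CPM where fewer than 2 were called. From marker lists, called genes were named, up to 3 by p. A gene of the homeostatic marker list is not reported here and was left out of its sums.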

Additional observations from a re-analysis of the deposited data

Results flagged for a closer look

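Of 36 groups of 4 libraries examined for a value far from the rest, where chance gives about 5%, 4 held one. Spp1 was at 6.40 CPM in plasma-negative replicate 3, with the other 3 plasma-negative libraries at 0. Igf1 was at 4.31 CPM in plasma-positive replicate 3, where the nearest other plasma-positive library was at 0.67 CPM. The summed monocyte or neutrophil markers reached 519 CPM in plasma-positive replicate 3, against 1.93 CPM in the nearest library of that group. Astrocyte or tanycyte markers summed to 140 CPM in plasma-positive replicate 2, against 32.6 CPM.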

How the results depend on the processing

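The count of listed genes called was 0 in edgeR and stayed 0 with relative log expression factors, library totals only and the length and GC correction. It was 1, Axl in each case, with upper-quartile factors, no filter, at least 1 CPM in 4 libraries, a mean count of at least 50, DESeq2, limma-voom, limma on log2(RPKM + 1) or log2(RPKM + 0.1), and an adjusted p under 0.1. Leaving out 1 library gave 0 to 1. Over all 21 alternatives the log2 fold change of Axl ran from 1.96 to 3.09 and its adjusted p from 0.000601 to 0.246. Csf1 turned to -0.20 in limma-voom and to -0.016 without plasma-positive replicate 2; the cause was not tested. With each library left out in turn it ran from -0.016 to 1.03. No other listed gene changed direction or passed in the alternatives that gave it a value, which were 17 of 21 for Igf1 and 20 of 21 for Spp1 since the others filtered it out. Igf1 has no fit without plasma-positive replicate 3, where its mean CPM is lower than in plasma-negative libraries.

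Genes called among all tested numbered 187 (112 higher, 75 lower) in edgeR and 66 to 203 with 1 library left out, of which 203 was without plasma-negative replicate 4 and 66 to 93 without each of the others. They numbered 965 in DESeq2, 447 and 432 in limma on log2(RPKM + 1) and log2(RPKM + 0.1), 407 at an adjusted p under 0.1 and 88 with the length and GC correction. The share called higher was 59.9% in edgeR, 28.2% with totals only, 86.8% and 85.6% on RPKM and 78.4% with the correction. The median over all genes was then -0.11 with totals only and 0.11 and 0.16 on RPKM.

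Libraries with the same replicate number deviated from their group means with correlations of 0.0109 to 0.0315 over 13277 genes. Plasma-negative replicates 1, 2 and 3 correlated best with another number, at 0.0492, 0.0211 and 0.0137, and replicate 4 with its own. Among plasma-positive libraries, replicates 1 and 2 correlated best with another number and replicates 3 and 4 with their own. With the replicate number as a block, 0 listed genes and 74 genes in all were called, and with the block and the correction together 0 and 32. The share called higher was 70.3% and 84.4%. In plasma-negative replicate 4, the shallowest library, 3 counts are 1.01 CPM, and Igf1, Spp1 and Itgax had 0 counts there. Spp1 also had 0 counts in plasma-negative replicates 1 and 2 and Igf1 in plasma-negative replicate 3, which were deeper.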
